A study of Caenorhabditis elegans with 91 samples.

Results

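The genes described here are the receptors through which the neurons of the nematode Caenorhabditis elegans read small-molecule transmitters and neuropeptides. They were chosen by name: every row of the count files whose symbol starts with npr, ser, dop, octr, tyra, gar, mgl, gbb, ckr or mod followed by a number. The mRNA files held 63 such rows of 30199, and the small RNA files held 48 of 21965. A further 15 genes, npr-21 to npr-35, stood in the small RNA files under sequence names and were left out of every small RNA count below. By role, the 63 genes comprised 6 for serotonin, 6 for dopamine, 6 for octopamine and tyramine, 3 for acetylcholine, 3 for glutamate, 2 for GABA and 37 for peptides. The symbol rule also took in mod-1, a chloride channel gated by serotonin, and mod-5, the serotonin reuptake transporter, neither of which is a G protein-coupled receptor.

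Most of these proteins are G protein-coupled receptors. A ligand released by one neuron changes the shape of the receptor on another cell, and the receptor then switches on a G protein that acts on cyclic AMP, on phospholipase C or on ion channels. In the worm these receptors set egg laying, feeding, locomotion and the search for food. RDE-4 binds long double-stranded RNA and helps the Dicer enzyme cut it into small interfering RNAs, and SID-1 is a channel that lets double-stranded RNA into cells.

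The study restored rde-4 in neurons of rde-4(ne299) mutants and sequenced small RNAs and mRNAs of day 1 adults grown on OP-50 bacteria. Whole-animal small RNA libraries came from N2, the Bristol wild type, at 20 and at 25 °C; from rde-4(ne299) carrying pigSi3, an integrated Psng-1::rde-4:SL2:yfp transgene; from rde-4(ne299) carrying the array pigEx9, with Psng-1::rde-4:SL2:yfp and Pmyo-3::Mcherry, or the array pigEx10, with Prgef-1::rde-4:SL2:yfp and Punc-122::gfp (both generation P0); from rde-4 mutant F1 and F3 descendants of the arrays and F3 descendants of pigSi3 heterozygotes; and from rde-4(ne299) itself at both temperatures. sng-1 and rgef-1 are neuronal promoters, so rde-4 was returned to neurons while the rest of the animal stayed mutant. Isolated neurons carried the nuclear marker otIs356[rab-3p(prom1)::2xNLS::TagRFP] in wild type (WT), pigSi3 and rde-4 strains. Dissected gonads came from pigSi3, its F3 descendants, sid-1(qt9); rde-4; pigSi3, sid-1(qt9); rde-4 and rde-4 animals. Groups had 3 libraries, except for 11 whole-animal rde-4 libraries at 20 °C, 6 of pigEx9 P0, 4 in each neuron mRNA group and 2 in each neuron and gonad small RNA group (3 for rde-4 gonads). The labels do not say that the replicates were separate cultures, so the spread behind each p-value may be technical.

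Whole-animal small RNA libraries held 1792 to 31077600 gene counts (large totals are rounded to 6 digits). Small RNA libraries of neurons held 735328 to 2530020 and those of gonads 1841970 to 49953700. The mRNA libraries of neurons held 5972140 to 15765900, and those of gonads held 2746060 to 36765100. pigEx9 F1 replicate 3 stands apart, with 1792 gene counts and 1 count over all receptor rows, and pigEx9 F1 results are given with and without it. rde-4 mRNA followed the neuron labels, at 299.6 ± 15.0 CPM in pigSi3 neurons, 16.9 ± 8.17 CPM in WT neurons and 2.84 ± 0.891 CPM in rde-4 neurons (SD, n = 4 each). All 15 neuron marker genes of a fixed list were higher in isolated neurons than in gonads and all 14 germline markers were lower, in rde-4 and in pigSi3 mRNA. CPM, the counts scaled to a common library size, are scaled here within each comparison's own set of libraries, so a library can carry slightly different CPM in different comparisons, and they are not divided by gene length, so levels are compared between groups and not between genes. A gene is called changed at an adjusted p under 0.05 in edgeR's quasi-likelihood test over all genes tested.

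Receptor genes drew few small RNAs in whole animals, and most of what there was came from a handful of rows. Summed over the 48 rows, N2 had 398 to 574 CPM, pigSi3 303 to 437 CPM and rde-4 295 to 443 CPM (n = 3 each). Of the 48 rows, 13 averaged at least 1 CPM in N2, 14 in pigSi3 and 16 in rde-4. The 3 rows with the most small RNA in each group, taken from npr-11, a receptor for the peptide NLP-1, mod-5, the octopamine receptor gene ser-3 and the serotonin receptor gene ser-5, held 73.4% of the sum in N2, 78.5% in pigSi3 and 78.1% in rde-4. Only 23 of the 48 rows had enough counts to be tested in these libraries, so a change in the other 25 was not detectable at this depth.

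In N2 against rde-4 at 20 °C, 7 of the 23 receptor rows tested were called, 2 higher and 5 lower, and 31.4% of all genes tested were called, 14.5% higher and 16.9% lower. The share among receptors was therefore near the background. ser-5 and ser-3 carried more small RNA in N2, while npr-20, ser-4, ckr-2, npr-8 and gar-2 carried less. The median log2 difference was -0.44 over the 23 receptor rows and 0.00 over all 12800 genes tested. Between N2 and rde-4 the CPM of 11 of the 23 rows did not overlap, as against 46.1% of all genes. Scaled by library totals, which lowered the median of all genes by 0.249 on the log2 scale, the split was 2 higher and 9 lower.

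Among the serotonin genes, ser-5 and ser-4 moved in opposite directions. ser-5, a serotonin receptor gene, had 120, 98.3 and 73.4 CPM in N2, against 17, 7.76 and 8.06 CPM in rde-4. The lowest N2 library was thus well above the highest rde-4 library. The log2 difference was 3.16 ± 0.315 (SE; edgeR adjusted p = 1.19e-04). ser-4, a serotonin receptor of the inhibitory kind, had 1.70, 1.09 and 1.85 CPM in N2, against 6.49, 5.82 and 7.81 CPM in rde-4, again without overlap. Its log2 difference was -2.12 ± 0.217 (edgeR adjusted p = 6.95e-05). mod-5, mod-1 and ser-1, the other serotonin rows tested, were not called, and mod-5 had 106, 98.6 and 71.0 CPM in N2, against 137, 103.99 and 60.5 CPM in rde-4. With the replicate number as a block, ser-1 was called lower in N2 (log2 difference -0.86, edgeR adjusted p = 0.0478). It was also called with library totals (-1.09, edgeR adjusted p = 0.0170).

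Of the octopamine and tyramine receptor genes, ser-3 was the row called. It had 174, 188 and 127 CPM in N2, against 70.2, 42.1 and 43 CPM in rde-4. Every N2 library was above every rde-4 library, and the log2 difference was 1.66 ± 0.237 (edgeR adjusted p = 7.48e-04). The tyramine receptor genes ser-2 and tyra-2 were tested and not called. dop-4, a dopamine receptor gene, was the only dopamine row with enough counts to test, and it was not called, at 0.737, 1.03 and 1.23 CPM in N2 and 0.644, 0.942 and 1.11 CPM in rde-4.

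Peptide receptors gave 3 calls, all lower in N2. npr-20 had 0.322, 0.109 and 0.839 CPM in N2, against 10.4, 6.15 and 6.01 CPM in rde-4. N2 means stood at 0.423 ± 0.375 CPM and rde-4 means at 7.50 ± 2.47 CPM (SD, n = 3 each), with no overlap and a log2 difference of -4.15 ± 0.493 (edgeR adjusted p = 2.00e-04). In this set npr-20 passed the filter on low counts through the rde-4 libraries. Its calls in N2 and in pigSi3 are therefore given as a description. ckr-2, a receptor of the cholecystokinin type, had 0.552, 0.653 and 0.559 CPM in N2, against 2.58, 2.94 and 2.99 CPM in rde-4 (log2 difference -2.26 ± 0.263, edgeR adjusted p = 1.56e-04). npr-8 averaged 3.83 CPM in N2 and 7.48 CPM in rde-4 (log2 difference -0.97 ± 0.184, edgeR adjusted p = 0.00319). npr-11 was not called, at 132, 129 and 80.7 CPM in N2 and 147, 152 and 114 CPM in rde-4. It was called lower in N2 with the replicate number as a block (log2 difference -0.29, edgeR adjusted p = 0.00784). With library totals it was also called (-0.52, edgeR adjusted p = 0.0462). gar-2, a muscarinic acetylcholine receptor gene, averaged 0.864 CPM in N2 and 2.04 CPM in rde-4 (log2 difference -1.23 ± 0.325, edgeR adjusted p = 0.0159). No GABA or glutamate receptor row was called in the edgeR test. gbb-1, which encodes a GABA-B receptor subunit, had an edgeR adjusted p of 0.0571, and with library totals it was called (log2 difference -1.29, edgeR adjusted p = 0.0225).

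**Figure D1:**
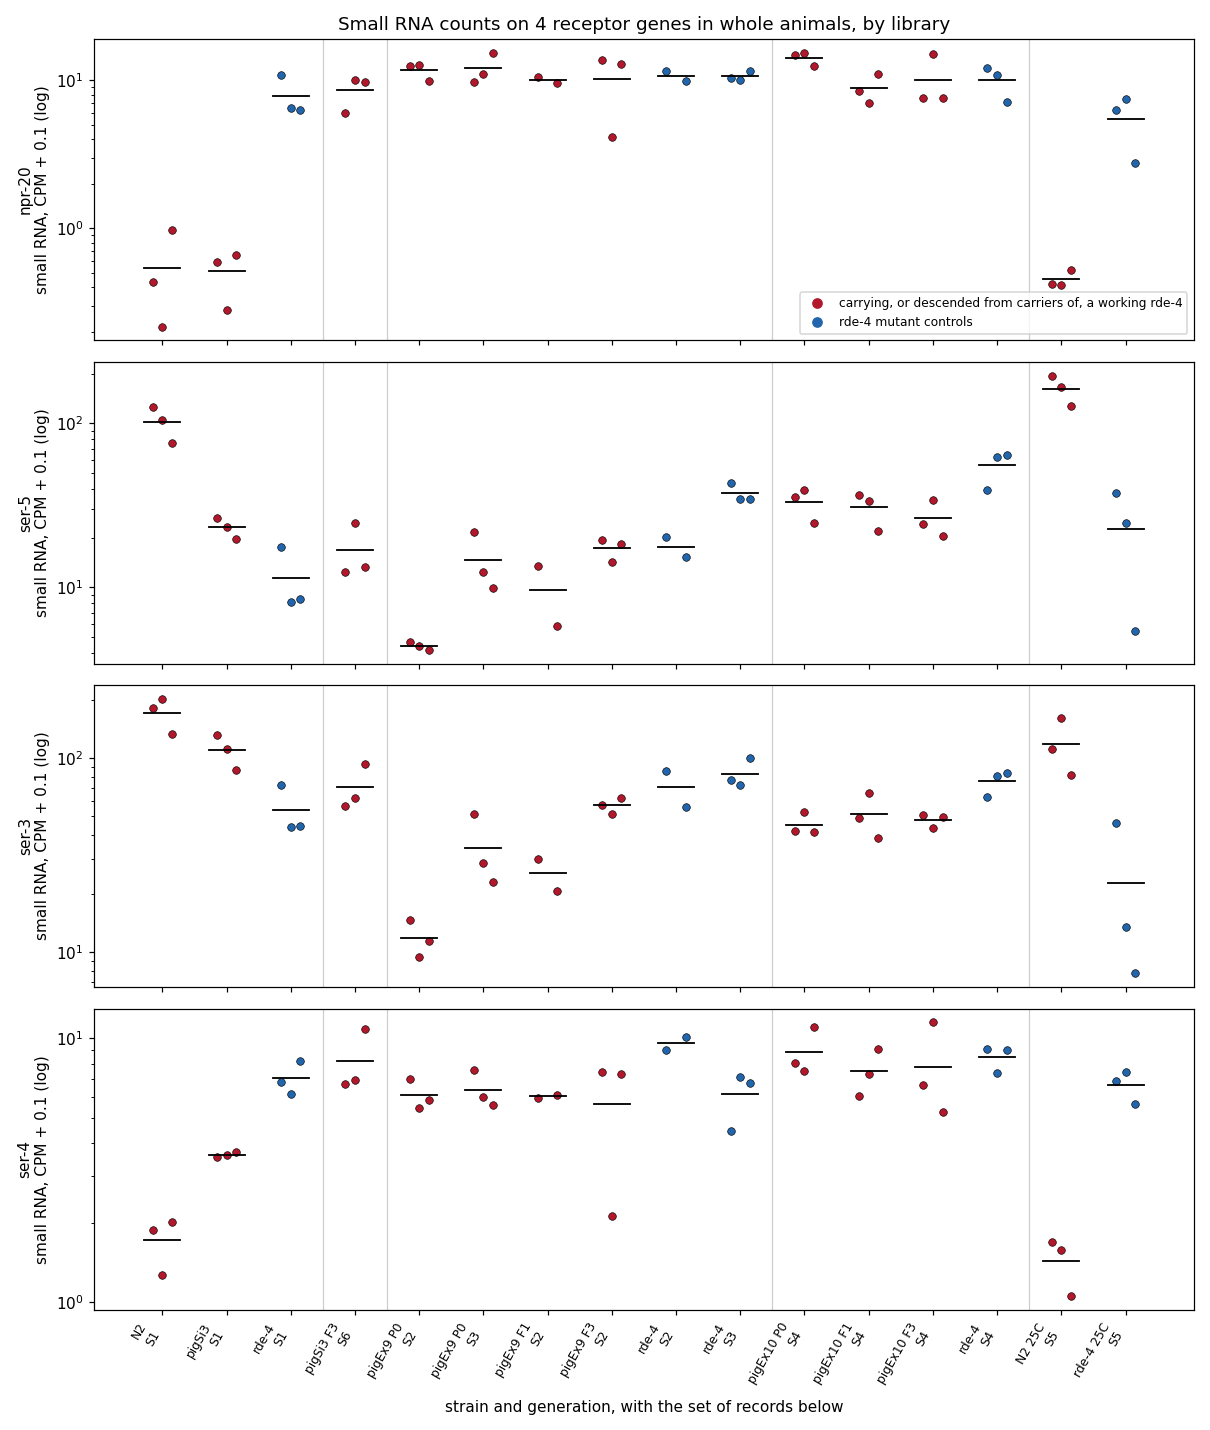
Small RNA of npr-20, ser-5, ser-3 and ser-4 in whole animals (CPM plus 0.1 on 1 common scale, log axis), 1 point per library, horizontal bars at means, with each strain left of its rde-4 controls and S1 to S6 marking runs of consecutive sample records; pigEx9 F1 replicate 3 is left out. npr-20 lies below 1 CPM in N2 and pigSi3 and above 2 CPM in all rde-4 libraries, and its values in array carriers and in descendants lie near those of rde-4.

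pigSi3 animals, with rde-4 back in neurons, were set against the same 3 rde-4 libraries, so their differences and those of N2 share a control. In pigSi3, 3 of the 23 receptor rows were called, 1 higher and 2 lower, and 5.86% of all genes tested were called, 1.92% higher and 3.94% lower. npr-20 had 0.485, 0.176 and 0.536 CPM in pigSi3, all below the lowest rde-4 library at 6.01 CPM. Its log2 difference was -4.16 ± 0.491 (edgeR adjusted p = 7.65e-04), beside -4.15 in N2. ser-4 had 3.40, 3.40 and 3.46 CPM in pigSi3, which lay between the N2 and the rde-4 values, and its log2 difference was -0.97 (edgeR adjusted p = 0.0174). ser-3 had 129, 107 and 83.1 CPM in pigSi3, above all 3 rde-4 libraries, and its log2 difference was 1.04 (edgeR adjusted p = 0.0292). The ser-3 call was lost in 6 of 12 alternatives, namely without either of rde-4 replicates 2 and 3 or of pigSi3 replicates 1 and 2, with no filter on low counts (edgeR adjusted p = 0.0735) and with all 11 rde-4 controls (log2 difference 0.64, edgeR adjusted p = 0.0965). The ser-4 call was lost in 5 of 12, each time without a single library, and held without rde-4 replicate 2.

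ser-5 had 26.1, 22.6 and 19 CPM in pigSi3, above all 3 rde-4 libraries and below all 3 N2 libraries. Its log2 difference of 1.05 did not pass (edgeR adjusted p = 0.0832), but it passed with the replicate number as a block (log2 difference 1.10, edgeR adjusted p = 0.00916). In that blocked fit 5 receptor rows were called in place of 3, mod-5 being the other row gained (log2 difference -0.75, edgeR adjusted p = 0.00205). With all 11 rde-4 libraries of 20 °C as controls the log2 difference of ser-5 was -0.43. npr-8 averaged 10.8 ± 2.40 CPM in pigSi3 and 7.48 ± 0.689 CPM in rde-4 and did not pass (edgeR adjusted p = 0.120), and its CPM in pigSi3 were above rde-4 where those in N2 were below. Between pigSi3 and rde-4, 7 of 23 rows did not overlap, as against 26.8% of all genes.

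**Figure D2:**
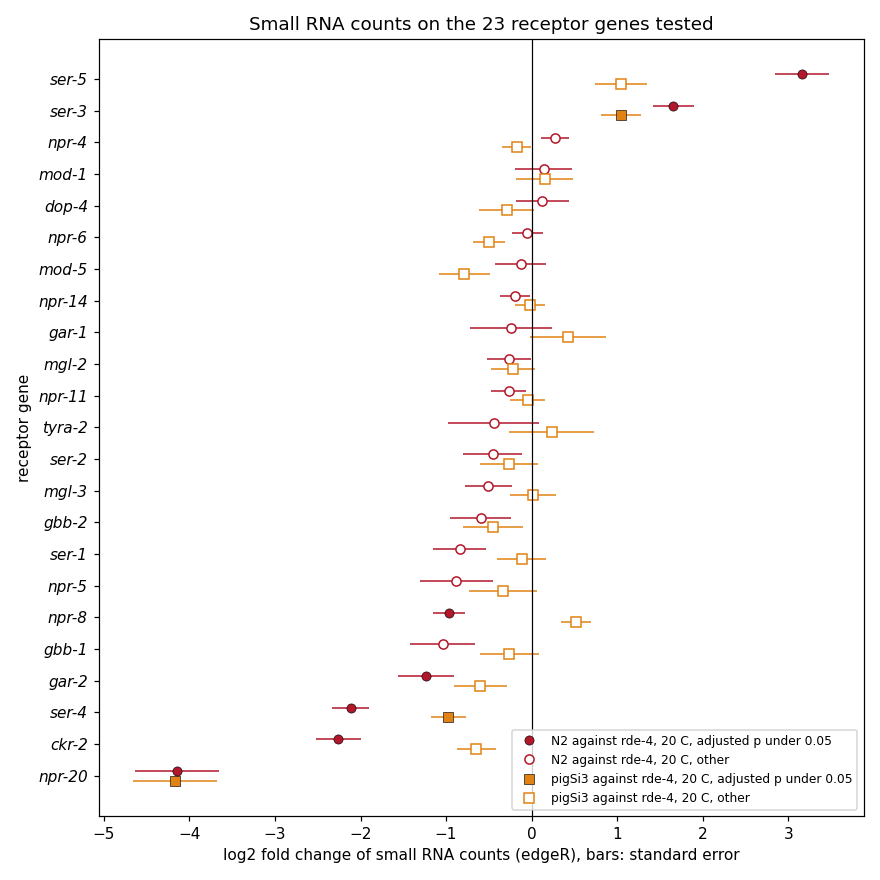
Log2 difference in small RNA of the 23 receptor rows tested in whole animals at 20 °C, for N2 (red circles) and pigSi3 (orange squares) against rde-4, with bars of 1 standard error; filled symbols have an adjusted p under 0.05. ser-5 and ser-3 lie right of 0 and npr-20, ser-4 and ckr-2 left of it in both strains, and npr-8 lies left in N2 and right in pigSi3.

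At 25 °C, 6 of 14 receptor rows tested were called in N2 against rde-4, 4 higher and 2 lower, and 16.5% of all genes tested were called, 6.97% higher and 9.54% lower. npr-20 had 0.241, 0.239 and 0.307 CPM in N2, against 4.87, 5.61 and 2.08 CPM in rde-4. The N2 values rest on 3 or 4 counts per library, and they lay below all rde-4 libraries (log2 difference -3.95 ± 0.540, edgeR adjusted p = 0.00274). Here npr-20 passed the filter on low counts only through the rde-4 libraries, so this call is given as a description. ser-4 was also lower, with 1.21, 1.11 and 0.690 CPM in N2, against 5.38, 5.61 and 4.28 CPM in rde-4 (log2 difference -2.33, edgeR adjusted p = 0.00517). ser-5 had 148, 126 and 92.2 CPM in N2, against 29.7, 18.9 and 4.15 CPM in rde-4, and ser-3 averaged 88.5 CPM in N2 and 17.6 CPM in rde-4. Their log2 differences were 2.83 for ser-5 (edgeR adjusted p = 0.0154) and 2.42 for ser-3 (edgeR adjusted p = 0.0344), and both calls were lost without a filter on low counts. Without rde-4 replicate 2 the count of called rows was 2, and without N2 replicate 2 it was 3.

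npr-4 and npr-11 were called at 25 °C and not at 20 °C, apart from the npr-11 calls in alternative fits given above. npr-4, a receptor for the FLP-18 peptides, had 3.06, 2.46 and 2.38 CPM in N2 at 25 °C, against 0.769, 0.730 and 0.649 CPM in rde-4 (log2 difference 1.87, edgeR adjusted p = 0.0152). In the 25 °C set npr-4 passed the filter on low counts only through the N2 libraries, so this call is given as a description. At 20 °C npr-4 had 5.76, 6.80 and 5.42 CPM in N2 and 5.10, 4.55 and 5.21 CPM in rde-4. It was not called there, although the groups did not overlap there either. The difference between the 2 temperatures in the N2 effect was tested directly and passed for npr-4 alone of 23 receptor rows, by 1.63 on the log2 scale (edgeR adjusted p = 0.0312), where 2.13% of all genes were called, 1.29% with a higher value at 25 °C. That call was lost without most single libraries and with a replicate block. npr-11 had 33.6, 64.7 and 13.6 CPM in N2, against 6.92, 5.28 and 13.1 CPM in rde-4 (log2 difference 2.15, edgeR adjusted p = 0.0405), with N2 replicate 3 only just above rde-4 replicate 3. The 25 °C libraries form a set of their own, so temperature and library set cannot be told apart.

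No difference in npr-20 was called with either array. With pigEx9, npr-20 had 10.5 to 16.5 CPM in the 6 P0 libraries (median 12.5 CPM), against 10.8, 10.8, 11.1, 12.5 and 12.6 CPM in rde-4, and the groups overlapped (log2 difference 0.13, edgeR adjusted p = 0.799). Of the 15 receptor rows tested there, 4 were called, 1 higher and 3 lower, and 6.78% of all genes were called, 1.89% higher and 4.89% lower. ser-3 had 9.82 to 55.3 CPM in pigEx9 P0 (median 20.0 CPM), against 94.3, 61.9, 83.3, 78.5 and 108 CPM in rde-4. Every P0 library was below every rde-4 library, and the log2 difference was -1.91 (edgeR adjusted p = 5.39e-04). ser-5 had 4.34 to 23.3 CPM in pigEx9 P0 (median 7.68 CPM), against 16.9 to 46.8 CPM in rde-4, with overlap (log2 difference -1.68, edgeR adjusted p = 5.53e-05). ser-5 and ser-3 were thus lower than in rde-4 with pigEx9 and higher than in rde-4 in N2. mod-5 was higher (log2 difference 0.65, edgeR adjusted p = 0.00859) and mgl-2, a metabotropic glutamate receptor gene, was lower (-0.89, edgeR adjusted p = 0.0224), and the groups overlapped in both.

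The pigEx9 libraries and their controls come from 2 runs of consecutive sample records, fitted as a covariate. In the first, with P0 replicates 1 to 3, the log2 differences were -2.58 for ser-3, -2.03 for ser-5, 0.75 for mod-5 and -1.15 for mgl-2, and all 4 were called. In the second, with P0 replicates 4 to 6, they were -1.26 for ser-3, -1.33 for ser-5, 0.63 for mod-5 and -0.60 for mgl-2. None was called there, with an edgeR adjusted p of 0.118 for ser-3 and 0.0554 for ser-5. In rde-4 F1 descendants of pigEx9, 0 of 15 receptor rows were called by edgeR, with and without replicate 3, and 0.176% of all genes were called. At an unadjusted p under 0.05 there were 4 such rows, and DESeq2 called 0. In F3 descendants edgeR also called 0 of 15, with 1 at an unadjusted p under 0.05 and 0 by DESeq2, and 0.0557% of all genes were called. npr-20 had 11.2 and 10.2 CPM in F1 replicates 1 and 2 and 14.6, 4.52 and 13.9 CPM in F3. The value of 4.52 CPM is from F3 replicate 2, a shallow library of 918317 gene counts.

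With pigEx10, 2 of 19 receptor rows tested were called, both higher, and 1.8% of all genes were called, 1.28% higher. mod-1 had 7.43, 8.15 and 7.10 CPM in P0, against 1.38, 1.19 and 1.84 CPM in rde-4, without overlap. Its log2 difference was 2.39 (edgeR adjusted p = 0.00309). In the descendants without the array, mod-1 had 0.842, 1.26 and 1.93 CPM in F1 and 1.86, 2.00 and 0.852 CPM in F3, and both generations overlapped rde-4. npr-13, a peptide receptor gene, had 3.18, 3.54 and 4.73 CPM in P0, 1.35, 0.448 and 1.14 CPM in F1, 0, 0.500 and 0.365 CPM in F3 and 0.172, 0.217 and 0.692 CPM in rde-4. All P0 libraries and 2 of the 3 F1 libraries lay above every rde-4 library, and F3 overlapped rde-4. With low values in the other groups, npr-13 passed the filter on low counts only through P0, so its call is given as a description. Its log2 difference in P0 was 3.49 (edgeR adjusted p = 0.0125). Without rde-4 replicate 10 the count of called rows was 1, and npr-13 was the call lost (edgeR adjusted p = 0.121).

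Neither npr-20 nor ser-5 was called with pigEx10. npr-20 had 15.6, 16.0 and 13.4 CPM in P0, against 12.4, 11.3 and 7.38 CPM in rde-4. ser-5 had 37.5, 41 and 26.8 CPM in P0, against 40.6, 65.2 and 67.8 CPM in rde-4. Among rde-4 descendants of pigEx10, edgeR called 0 of 19 receptor rows in F1 and 0 of 19 in F3, with 2 rows at an unadjusted p under 0.05 in each, and 0.355% of all genes were called in each. DESeq2 called 0 in F1 and 1 in F3, ser-5, at a log2 difference of -1.06 (DESeq2 adjusted p = 0.0107). The F3 descendants of pigSi3 heterozygotes gave 0 calls by edgeR among 20 receptor rows, 1 at an unadjusted p under 0.05 and 0 by DESeq2, with 0.0172% of all genes called. These F3 libraries form a run of sample records with no rde-4 library, and their 11 controls come from several other runs. Strain and library set cannot be told apart there, and differences between the control runs add to the spread. npr-20 had 5.95, 10.2 and 9.81 CPM in those pigSi3 F3 animals, inside the range of 6.29 to 12.3 CPM over the 11 rde-4 libraries but for 1 library just below it.

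The rde-4 libraries themselves were not alike in their receptor small RNAs. On a common scale, the 11 libraries of 20 °C had 6.23 to 12.0 CPM of npr-20 (median 10.3 CPM), while ser-5 spread from 8.07 to 64.2 CPM (median 34.3 CPM). ser-5 averaged 11.4 ± 5.44 CPM in replicates 1 to 3, 17.7 ± 3.43 CPM in replicates 4 and 5, 37.3 ± 5.03 CPM in replicates 6 to 8 and 55.4 ± 13.9 CPM in replicates 9 to 11 (SD, n = 3, 2, 3 and 3). ser-3 ranged from 43.8 to 99.9 CPM and npr-11 from 73 to 280 CPM. mod-5 had 56.2 to 209 CPM in these libraries, and on the same scale it averaged 603 ± 23.8 CPM in N2 and 641 ± 401 CPM in rde-4 at 25 °C. The part of library set in the ser-5 differences was not tested, beyond the fits with other controls given above.

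In isolated neurons, 8 receptor rows had enough small RNA counts to test, and npr-20 was called in both strains. npr-20 had no count in the 2 WT libraries or the 2 pigSi3 libraries, against 12.1 and 12.9 CPM in rde-4, from 17 and 13 counts. Taking 3 counts per library as the floor, npr-20 small RNA was at least 6.20-fold lower in WT and at least 4.67-fold lower in pigSi3 than in rde-4. With no count in either strain, npr-20 passed the filter on low counts only through the rde-4 libraries, so its calls are given as a description. It was called in WT (edgeR adjusted p = 0.00794), where 3.34% of all genes were called and 1.87% were lower. It was also called in pigSi3 (edgeR adjusted p = 0.0239), where 0.955% of all genes were called and 0.491% were lower. Without WT replicate 1, WT replicate 2 or rde-4 replicate 2 the WT call was lost. The pigSi3 call was lost without rde-4 replicate 1, rde-4 replicate 2 or pigSi3 replicate 2, and DESeq2 did not make it. The rde-4 libraries are shared by both comparisons.

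No difference in ser-5 was called in isolated neurons. It had 59.8 and 57.8 CPM in WT, 38.7 and 95.2 CPM in pigSi3 and 45 and 89.6 CPM in rde-4 neurons, and the groups overlapped. ser-3 had 35.2 and 26.0 CPM in WT, 34.5 and 41.5 CPM in pigSi3 and 25.0 and 22.9 CPM in rde-4 neurons, and was not called. npr-11 had 133 and 102 CPM in WT, 109 and 243 CPM in pigSi3 and 151 and 315 CPM in rde-4 neurons, and was not called. Summed small RNA of the 15 neuron marker genes was 2609 and 2879 CPM in WT, 2786 and 2379 CPM in pigSi3 and 1539 and 1744 CPM in rde-4. The 14 germline markers summed to 2846 and 2966 CPM in WT neurons and 2459 and 2479 CPM in pigSi3 neurons. They summed to 2541 and 2257 CPM in rde-4 neurons, beside 4330, 4094 and 4517 CPM in rde-4 gonads. The part of these marker sums in these results and in the tissue comparisons below was not tested.

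In pigSi3 gonads ser-5 and ser-3 carried more small RNA than in rde-4 gonads and npr-20 carried less. There 3 of 20 rows tested were called, 2 higher and 1 lower, and 1.98% of all genes were called, 0.512% higher and 1.47% lower. ser-5 had 91.5 and 87.1 CPM in pigSi3, against 15.6, 15.8 and 29.9 CPM in rde-4. The groups were far apart, and the log2 difference was 2.13 (edgeR adjusted p = 0.00265), held without each of the 5 libraries. npr-20 had 0.860 and 0.314 CPM in pigSi3, against 6.58, 6.1 and 9.38 CPM in rde-4 (log2 difference -3.72, edgeR adjusted p = 0.0152). In this comparison npr-20 passed the filter on low counts through rde-4 and not through pigSi3, so its call is given as a description. ser-3 had 151 and 114 CPM in pigSi3, against 42.9, 53.9 and 79.6 CPM in rde-4 (log2 difference 1.17, edgeR adjusted p = 0.0375). Without pigSi3 replicate 1 or 2 the count of called rows was 1.

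The sid-1; rde-4 gonads, which have no rde-4 transgene, had more ser-3 and ser-5 small RNA than rde-4 gonads and less npr-20, npr-5 and ckr-2. Of 20 receptor rows 5 were called, 2 higher and 3 lower, and 3.31% of all genes were called, 0.755% higher and 2.55% lower. ser-3 had 204 and 197 CPM in sid-1; rde-4, against 42.9, 53.9 and 79.6 CPM in rde-4 (log2 difference 1.77, edgeR adjusted p = 0.00418). ser-5 had 62.6 and 72.3 CPM in sid-1; rde-4, above all rde-4 libraries (log2 difference 1.73, edgeR adjusted p = 0.00615). npr-20 had 0 and 0.474 CPM in sid-1; rde-4, below all rde-4 libraries (log2 difference -4.23, edgeR adjusted p = 0.00849). npr-5, another FLP-18 receptor gene, was lower (-2.61, edgeR adjusted p = 0.0274), as was ckr-2 (-1.94, edgeR adjusted p = 0.0483). In this comparison these 3 lower rows passed the filter on low counts through rde-4 and not through sid-1; rde-4. Their calls are therefore given as a description. Without sid-1; rde-4 replicate 2 the count of called rows was 1, and without replicate 1 or without rde-4 replicate 2 it was 3.

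With sid-1(qt9) in both groups, adding pigSi3 gave no call among the receptors. In sid-1; rde-4; pigSi3 against sid-1; rde-4 gonads, edgeR called 0 of 20 rows, 1 row had an unadjusted p under 0.05 and DESeq2 called 0, with 0.573% of all genes called. ser-5 had 96.9 and 81.7 CPM in sid-1; rde-4; pigSi3 and npr-20 had no count in it. F3 descendants of pigSi3 had npr-20 at 3.29 and 6.56 CPM, ser-5 at 21.9 and 28.4 CPM and ser-3 at 63 and 60.9 CPM in gonads. Of 20 rows, edgeR called 0 in F3 against rde-4, 4 had an unadjusted p under 0.05 and DESeq2 called 1, npr-11, with 0.165% of all genes called by edgeR. Without F3 replicate 1, which leaves 1 F3 library that is assumed to vary like the other groups, 6 rows were called. The pigSi3, F3 and sid-1; rde-4 comparisons share the 3 rde-4 gonad libraries.

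**Figure D3:**
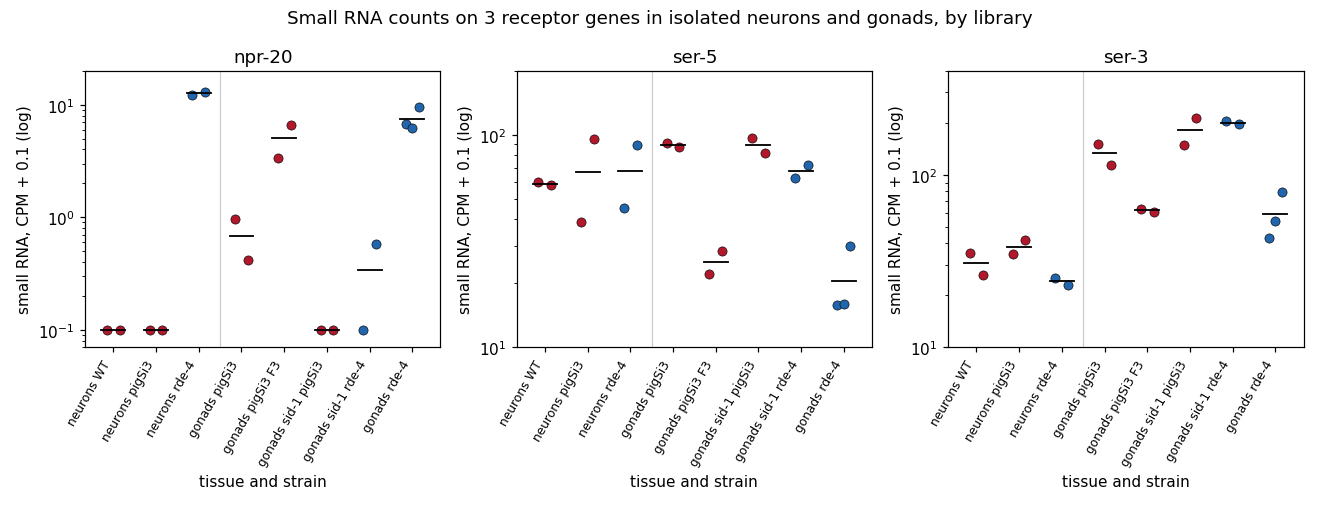
Small RNA of npr-20, ser-5 and ser-3 in isolated neurons and dissected gonads (CPM plus 0.1, log axis), 1 point per library, horizontal bars at group means, red for strains set against a mutant control and blue for strains used as one. npr-20 is at or near 0 in WT and pigSi3 neurons and in pigSi3 and both sid-1 gonad groups, while ser-5 separates pigSi3 from rde-4 in gonads and not in neurons.

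The overlap of ser-3, ser-5, ckr-2 and mod-5 with protein-coding neighbours was looked at, since the strand setting of the counting is not known. In the RefSeq annotation of WBcel235, 41 of the 63 genes overlap another gene's span and 17 overlap a protein-coding one; npr-20, ser-4, npr-4, npr-5 and npr-11 overlap none. teg-4, which overlaps ser-3, averaged 126 CPM in N2 and 102 CPM in rde-4 (log2 difference 0.30, edgeR adjusted p = 0.0765). T19A6.1, which overlaps ser-5, averaged 20.9 CPM in N2 and 19.4 CPM in rde-4 (0.10, edgeR adjusted p = 0.518). Whether reads shared with a neighbour had a part in the ser-3 and ser-5 differences was not tested. Y54E10BR.2, which overlaps mod-5, had a log2 difference of -0.21 in pigEx9 P0 (edgeR adjusted p = 0.620), where mod-5 was called higher. Y39A3B.1, which overlaps ckr-2, was lower in N2 like ckr-2 (log2 difference -1.19, edgeR adjusted p = 0.00692), and the reads of these 2 genes cannot be told apart without strand.

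The small RNA of several receptors also differed between tissues of the same genotype. In rde-4, 4 of 20 rows tested were called in neurons against gonads, all higher, and 29.3% of all genes were called, 14.2% higher. npr-6 had 7.52 and 10.2 CPM in rde-4 neurons, against 2.17, 1.57 and 3.52 CPM in rde-4 gonads (log2 difference 1.85, edgeR adjusted p = 0.0166). ser-5 had 52.7 and 102 CPM in rde-4 neurons, against 14.1, 14.4 and 27 CPM in rde-4 gonads (2.03, edgeR adjusted p = 0.0192). mod-5 and npr-11 were the other 2, with log2 differences of 0.76 and 1.25. Scaled by library totals, 2 rows were higher and 2 lower. Without neurons rde-4 replicate 2 the count of called rows was 0.

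In pigSi3, 5 of 20 rows were called in neurons against gonads, 4 higher and 1 lower, and 25.9% of all genes were called, 12.8% higher and 13.1% lower. npr-4 had 11.2 and 10.9 CPM in pigSi3 neurons, against 1.67 and 2.38 CPM in pigSi3 gonads (log2 difference 2.41, edgeR adjusted p = 0.00188). ser-3 had 39.9 and 49.9 CPM in pigSi3 neurons, against 137 and 105 CPM in pigSi3 gonads (-1.38, edgeR adjusted p = 0.00716). npr-2, npr-8 and npr-6 were higher, with log2 differences of 3.18, 1.28 and 1.73 (edgeR adjusted p = 0.0347, 0.0367 and 0.0456). In pigSi3 neurons npr-2 rested on 1 and 4 counts and npr-6 on 2 and 12. npr-2 passed the filter on low counts only through neuron libraries, so its call is given as a description. ser-5 was not called in pigSi3, with a log2 difference of 0.10. Without neurons pigSi3 replicate 2 the count was 1, without gonads pigSi3 replicate 1 it was 2 and without gonads pigSi3 replicate 2 it was 3. The otIs356 marker is in the neuron strains and not in the gonad strains, so marker and tissue cannot be told apart.

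Receptor mRNA was found mainly in neurons. All 63 rows averaged at least 1 CPM in WT and rde-4 neurons and 62 did in pigSi3 neurons, where npr-20 averaged 0.740 CPM. In gonads, 7 of 63 did in rde-4: ser-7 at 9.04 CPM, ser-5 at 2.32 CPM, mod-5 at 2.27 CPM, dop-4 at 1.80 CPM, gbb-2 at 1.71 CPM, npr-17 at 1.17 CPM and npr-35 at 1.16 CPM. Summed over the 63 rows, rde-4 neurons had 3952 to 6520 CPM, and the 15 gonad libraries had 27 to 40.1 CPM. In bulk RNA, fewer cells of a type and less RNA per cell cannot be told apart.

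In rde-4 mRNA all 63 rows were called higher in neurons than in gonads, and 74.9% of all genes tested were called, 37.7% higher. The rows passed the filter on low counts through their neuron values, so this count describes the tissue and supports nothing further. The median log2 difference was 8.10 in rde-4 and 8.40 in pigSi3, where 63 of 63 were also called higher, beside 74.9% of all genes called and 39% higher. By role, the rde-4 medians were 9.52 for dopamine, 9.19 for acetylcholine, 8.48 for GABA, 8.32 for peptide, 7.47 for octopamine and tyramine, 7.27 for glutamate and 5.47 for serotonin receptors. dop-1, a dopamine receptor gene, had 127, 130, 152 and 157 CPM in rde-4 neurons, against 0.121, 0.116 and 0.106 CPM in rde-4 gonads. dop-5 had no count in the 3 rde-4 gonad libraries and was at least 855-fold higher in rde-4 neurons, with 3 counts per library as the floor.

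The receptors with the smallest tissue difference were those detected in gonads or low in neurons. mod-5 had 11.1, 11.4, 9.39 and 9.71 CPM in rde-4 neurons, against 1.93, 1.74 and 1.27 CPM in rde-4 gonads (log2 difference 2.63). npr-20 had 3.57, 1.18, 1.98 and 6.63 CPM in rde-4 neurons, against 0.580, 0.116 and 0.425 CPM in rde-4 gonads (3.04), the lowest of the peptide receptors. ser-5 had 20.4, 7.76, 16.1 and 19.5 CPM in rde-4 neurons, against 2.20, 1.51 and 1.38 CPM in rde-4 gonads (3.19). In pigSi3 the npr-20 groups overlapped, and its call was lost with library totals, with a replicate block and without 3 of the 7 single libraries. Of the 63 rows, 62 did not overlap between rde-4 neurons and rde-4 gonads, as against 71.3% of all genes, and npr-31 overlapped, with no count in 1 of the 4 neuron libraries.

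**Figure D4:**
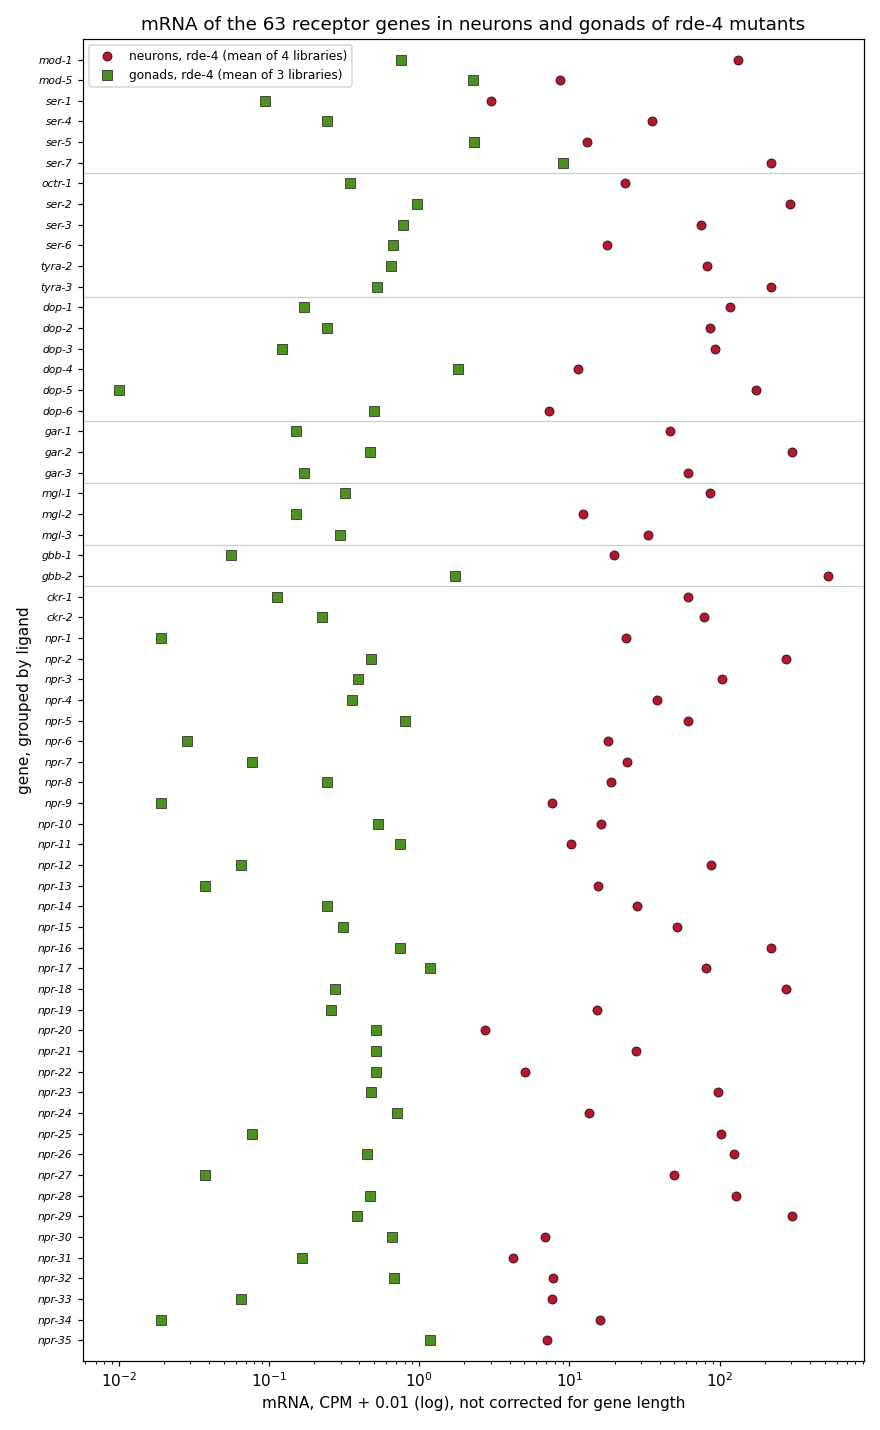
Mean mRNA of each of the 63 receptor rows in rde-4 neurons (red circles, 4 libraries) and rde-4 gonads (green squares, 3 libraries), as CPM plus 0.01 on a log axis, with genes in rows grouped by ligand. Each circle lies to the right of its square, and ser-7 has the highest gonad mean, at 9.04 CPM.

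In neurons, no receptor mRNA was called by edgeR in either strain against rde-4. In WT against rde-4 neurons, edgeR called 0 of 63 rows, 9 rows had an unadjusted p under 0.05 and DESeq2 called 2, with 0.433% of all genes called by edgeR. The median log2 difference was -0.33 over the 63 rows and 0.17 over all genes. ckr-1, a receptor of the cholecystokinin type, had 28.8, 36.5, 24.4 and 40.9 CPM in WT, against 57.4, 57.8, 71.4 and 59.9 CPM in rde-4. Its groups did not overlap, and its log2 difference of -0.92 had an edgeR adjusted p of 0.130 and a DESeq2 adjusted p of 0.0152. npr-17 had 22.9, 27.5, 11.3 and 45.9 CPM in WT, against 73, 136, 57.9 and 58.9 CPM in rde-4 (log2 difference -1.60, edgeR adjusted p = 0.122, DESeq2 adjusted p = 0.0179). ser-5 was the row with no overlap that lay higher in WT, at 29.6, 20.1, 24.3 and 31.0 CPM against 16.4, 6.55, 13.4 and 16.0 CPM in rde-4 (log2 difference 1.0, edgeR adjusted p = 0.199). Of the 63 rows, 5 did not overlap between WT and rde-4, the other 2 being dop-1 and octr-1, as against 6.44% of all genes.

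The WT neuron libraries differed among themselves in purity markers. Summed CPM of the 15 neuron markers were 22723, 25868, 14883 and 43763 in WT replicates 1 to 4, 40631 to 50792 in pigSi3 and 38478 to 57197 in rde-4. Summed CPM of 12 muscle markers were 26210, 7955, 22167 and 6539 in WT replicates 1 to 4, 10305 to 12119 in pigSi3 and 10932 to 17700 in rde-4. The receptors' sum was 1644 to 6559 CPM in WT, 5485 to 9485 CPM in pigSi3 and 3952 to 6520 CPM in rde-4. ser-7, a serotonin receptor of the pharynx and egg-laying circuit, had 54.3, 87.1, 19.3 and 300.3 CPM in WT, so that its highest library was that with the most neuron marker mRNA. Without WT replicate 4, 6 rows were called lower in WT, with log2 differences of -1.07 for ckr-1, -2.01 for npr-17, -2.35 for npr-18, -1.58 for npr-23, -1.59 for npr-24 and -2.06 for ser-7. The part of the marker levels in these values was not tested.

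In pigSi3 against rde-4 neurons, edgeR called 0 of 63 rows, 3 had an unadjusted p under 0.05 and DESeq2 called 0, with 0.0236% of all genes called by edgeR. dop-6 had 21.8, 25.2, 25.6 and 27.6 CPM in pigSi3, against 7.58, 12.0, 5.14 and 4.33 CPM in rde-4, without overlap. Its log2 difference of 1.78 had an edgeR adjusted p of 0.475. mgl-2 had 33.4, 40.6, 33.4 and 81.6 CPM in pigSi3, against 11, 22, 10.6 and 5.95 CPM in rde-4 (1.93, edgeR adjusted p = 0.451). npr-25 had 66.0, 60.9, 55.1 and 69.0 CPM in pigSi3, against 90.0, 88.6, 121 and 110 CPM in rde-4 (-0.71, edgeR adjusted p = 0.500). gbb-2, which encodes a GABA-B receptor subunit, ranged widely within groups, with 1031 to 1538 CPM in pigSi3, 63.9 to 1277 CPM in WT and 156 to 1299 CPM in rde-4, and the ranges overlapped.

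**Figure D5:**
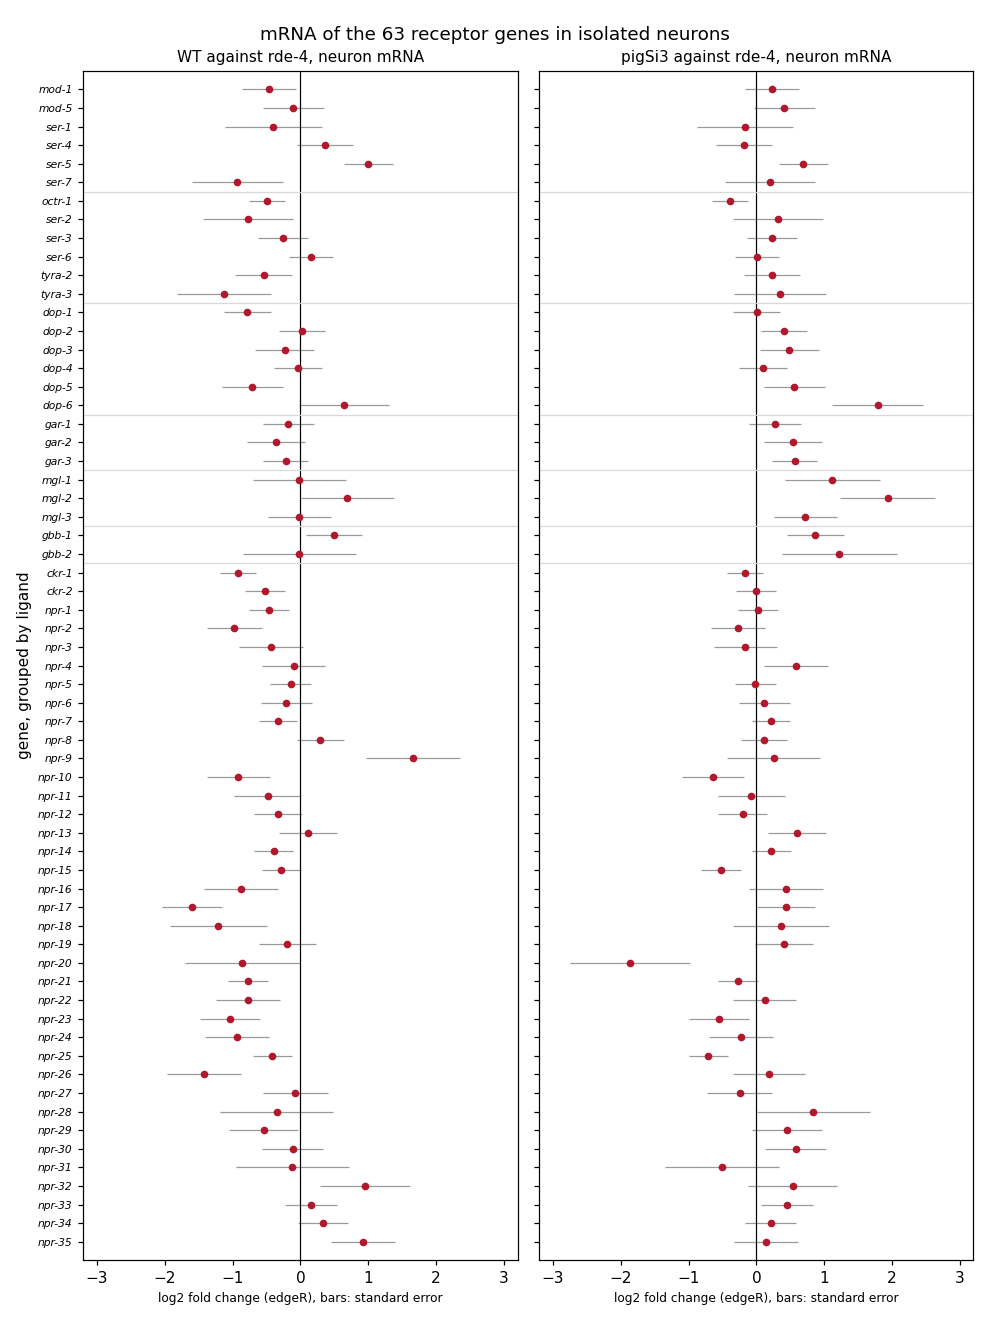
Log2 difference in neuron mRNA of the 63 receptor rows, WT (left) and pigSi3 (right) each against rde-4, with bars of 1 standard error and genes grouped by ligand. No row has an edgeR adjusted p under 0.05, and ckr-1 and npr-17 lie left of 0 and ser-5 right of it in WT.

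In gonads 5 receptor rows had enough mRNA to test: gbb-2, mod-5, ser-3, ser-5 and ser-7. edgeR called 0 of them in pigSi3 against rde-4, in sid-1; rde-4; pigSi3 against sid-1; rde-4 and in sid-1; rde-4 against rde-4, with 0 at an unadjusted p under 0.05 and 0 by DESeq2 in each. The share of all genes called was 0.483% in the first, 0.123% in the second and 0.388% in the third. In pigSi3 F3 against rde-4, 2 of 5 were called, 1 higher and 1 lower, and 28% of all genes were called, 13.6% higher and 14.4% lower. ser-3 had 1.99, 1.81 and 2.86 CPM in pigSi3 F3, against 1.11, 0.344 and 0.843 CPM in rde-4 (log2 difference 1.41, edgeR adjusted p = 0.0299). This call was lost with no filter on low counts (edgeR adjusted p = 0.0740), without rde-4 replicate 2 or 3 and without pigSi3 F3 replicate 3. gbb-2 had 0.664, 0.452 and 0.159 CPM in pigSi3 F3, against 2.05, 1.89 and 1.18 CPM in rde-4 (-2.01, edgeR adjusted p = 0.0485), and this call was lost without any 1 of the 6 libraries. ser-7, the receptor row with the highest gonad CPM, had 7.30, 6.11 and 2.70 CPM in pigSi3 F3, against 8.70, 9.98 and 8.43 CPM in rde-4, and was not called. The F3 gonads also differed in marker levels, with a germline marker sum of 5376 to 6598 CPM in pigSi3 F3 against 10004 to 10387 CPM in rde-4, an intestine marker sum of 518 to 1763 CPM against 2262 to 4812 CPM, and a sperm marker sum of 287 to 590 CPM against 74.8 to 271 CPM. Their part in the calls was not tested.

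Set beside each other in 1 tissue, small RNA and mRNA of the same receptor did not always differ together. npr-20 small RNA was called lower in WT and in pigSi3 neurons, where it passed the filter on low counts only through rde-4. Its mRNA was 3.43, 1.43, 0.893 and 0.318 CPM in WT, 0.932, 0.360, 0.145 and 1.52 CPM in pigSi3 and 2.87, 0.999, 1.64 and 5.44 CPM in rde-4 neurons, and the groups overlapped. The log2 difference of npr-20 mRNA was -0.86 in WT (edgeR adjusted p = 0.640) and -1.86 in pigSi3 (edgeR adjusted p = 0.575). ser-5 small RNA was called higher in pigSi3 gonads, where its mRNA was 1.5, 1.47 and 2.96 CPM, against 2.52, 2.24 and 2.19 CPM in rde-4 gonads. ser-3 small RNA was also called higher there, with mRNA at 1.12, 1.90 and 1.22 CPM in pigSi3 and 1.11, 0.344 and 0.843 CPM in rde-4, and neither mRNA was called.

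Genes that work with these receptors were taken from 4 lists: G protein subunits, regulators and effectors of G proteins, transmitter synthesis and transport, and peptide receptors with other names. In whole-animal small RNA of N2 against rde-4 at 20 °C, 0 were called higher and 1 lower of 12 G protein subunits tested, 1 higher and 11 lower of 32 regulators and effectors, 0 higher and 5 lower of 15 transmitter genes, and 0 higher and 8 lower of 24 other peptide receptors, beside 14.5% of all genes called higher and 16.9% lower. pde-4, a phosphodiesterase that breaks down cyclic AMP, averaged 1.89 ± 0.193 CPM in N2 and 56.3 ± 8.71 CPM in rde-4 (SD, n = 3 each), a log2 difference of -4.89 (edgeR adjusted p = 6.99e-09). egl-8, the phospholipase C downstream of Gq, averaged 47.4 CPM in N2 and 445 CPM in rde-4 (-3.23, edgeR adjusted p = 1.93e-06). dmsr-6, a peptide receptor gene, averaged 35.3 CPM in N2 and 144.6 CPM in rde-4 (-2.03, edgeR adjusted p = 1.13e-04).

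In pigSi3 against the same rde-4 libraries, the same lists gave 0 higher and 0 lower of 12, 2 higher and 3 lower of 32, 0 higher and 1 lower of 15 and 0 higher and 4 lower of 24, beside 1.92% of all genes called higher and 3.94% lower. pde-4 averaged 2.85 CPM in pigSi3 (log2 difference -4.30, edgeR adjusted p = 1.07e-07) and egl-8 124 CPM (-1.85, edgeR adjusted p = 4.35e-04). egl-10, which shuts off Go signalling, averaged 90.0 CPM in pigSi3 and 33.4 CPM in rde-4, with a log2 difference of 1.43 (edgeR adjusted p = 7.65e-04), whereas in N2 it averaged 15.7 CPM (-1.10, edgeR adjusted p = 0.00118). In neuron mRNA none of the 4 lists had a gene called by edgeR in WT or in pigSi3 against rde-4.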

How the data were processed

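The deposited values are counts of reads per gene for each library, made by the authors; per the submitters' processing notes, cutadapt, FastQC, HTSeq and DESeq2 were used with the ce10 build, without versions. For the aligner, annotation, strand setting and small RNA kit of each library, nothing is given in the sources used here. Rows that name no gene, which held 17.3 to 71.4% of small RNA counts and 47.5 to 54.2% of mRNA counts, were left out of library sizes. Counts were analysed with edgeR 4.0.16 in R 4.3.3 (TMM factors, filterByExpr, robust quasi-likelihood fit and test, Benjamini-Hochberg adjustment over all genes tested), separately for each tissue, molecule and run of sample records. The pigEx9 fit held the run of records as a covariate, and pigSi3 F3 whole animals were set against all 11 rde-4 libraries. Scripts were tested on simulated data. Alternatives were other size factors, library totals, no filter, DESeq2 1.42.0, other controls, a replicate block and leaving out each library in turn. No replicate pair agreed within sampling noise, apart from pairs with the library of 1792 counts.

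Same-numbered N2, pigSi3 and rde-4 libraries of the first whole-animal set deviated together from their group means. Correlations across genes were 0.17 to 0.39, above the 0.1 taken as pairing, so the numbers pair there. The main edgeR test did not use this pairing, which entered only the alternative fits with a replicate block. The receptor genes and the gene lists were chosen with earlier results of these data known. Members were given values where they had an adjusted p under 0.05 and a higher-group mean of 1 CPM or more (at most 12 in a direction, by fold change), with npr-20 and ser-5 in every comparison; others named with values were chosen after their values were seen. Gene names, chromosomes and overlaps come from RefSeq WBcel235, and no sequence, gene length or coordinate was used here.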

Additional observations from a re-analysis of the deposited data

Results flagged for a closer look

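npr-4, the gene for an FLP-18 peptide receptor, stood out for an N2 effect on its small RNA that differed between the 2 temperatures. Its log2 difference between N2 and rde-4 was 1.63 larger at 25 °C than at 20 °C (interaction term, edgeR adjusted p = 0.0312), and at both temperatures all 3 N2 libraries lay above all 3 rde-4 libraries. At 25 °C it had 2.38 to 3.06 CPM in N2 and 0.649 to 0.769 CPM in rde-4, the rde-4 values on 3 to 13 counts per library. On a scale common to all whole-animal libraries, N2 averaged 6.29 CPM at 20 °C and 3.52 CPM at 25 °C, and rde-4 averaged 5.14 CPM in replicates 1 to 3 at 20 °C and 0.923 CPM at 25 °C. The call was lost in 12 of 17 alternatives, with a replicate block (edgeR adjusted p = 0.0716), with no filter on low counts (edgeR adjusted p = 0.0796) and without 10 of the 12 single libraries. Temperature and library set cannot be told apart. In 34 groups of values examined, each from 4 or more libraries, no library stood apart by Dixon's test, which chance alone would flag in about 1 of 20 groups. These were set lists of receptors in pigEx9 P0, its rde-4 controls and the neuron mRNA groups. The lists left out npr-4, ser-4, ckr-2, npr-8, npr-13 and mod-1, and groups with fewer libraries could not be examined.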

How the results depend on the processing

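Of the values named for single receptors, 72 passed the threshold, and over all 105 named values 1082 of 1239 alternative values kept direction and call, 124 lost the call, 5 gained it and 28 changed sign, all 28 being values of npr-20 or ser-5 that were not called. npr-20 stayed called under all alternatives in N2 at 20 and 25 °C and in whole pigSi3 animals, as did ser-5, ser-3, ser-4, ckr-2 and npr-8 in N2 at 20 °C. Only 23 of 48 receptor rows had enough counts to test in that set. Leaving a library out of a group of 2 leaves 1, which is assumed to vary like the other groups.

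With library totals the number of receptor rows called was 11 in N2 at 20 °C, 1 in pigSi3 F3 gonad mRNA and 3 between pigSi3 neurons and gonads in small RNA. With all 11 rde-4 controls it was 2 in pigEx9 P0, with the second run of records alone it was 0 there, and with the first run alone it was 2 in pigEx9 F1. DESeq2 called 4 in pigEx10 P0, 1 in pigEx10 F3, 2 for the temperature difference, 0 in pigSi3 neuron small RNA, 1 in pigSi3 F3 gonad small RNA, 2 in WT neuron mRNA and 1 in pigSi3 F3 gonad mRNA. Without a filter on low counts the number was 3 in N2 at 25 °C, 0 for the temperature difference, 2 in WT neuron small RNA and 0 in pigSi3 F3 gonad mRNA. With a replicate block it was 5 in whole pigSi3 animals, 0 for the temperature difference, 1 in pigSi3 F3 gonad mRNA and 3 between pigSi3 neurons and gonads in small RNA. In the blocked fits the gonad npr-20 call of pigSi3 (edgeR adjusted p = 0.0633) and the gonad npr-5 and ckr-2 calls of sid-1; rde-4 (0.120 and 0.129) were lost. Outside the first whole-animal set the libraries share only a number. For pigEx10 and the pigEx9 descendants no paired analysis was possible, because their rde-4 controls share too few replicate numbers with them. Library totals shifted the median log2 difference of all genes by -0.249 in N2 at 20 °C, 0.326 in WT and 0.202 in pigSi3 neuron mRNA, and by -0.863 to -0.391 between tissues. The cause of these shifts was not tested.

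Leaving out single libraries gave 1 to 3 called rows in whole pigSi3, 1 to 2 in pigEx10 P0, 2 to 6 in N2 at 25 °C, 0 to 2 for the temperature difference, 0 to 1 in WT and in pigSi3 neuron small RNA, 1 to 4 in pigSi3 gonad small RNA, 0 to 6 in pigSi3 F3 gonad small RNA, 1 to 4 in sid-1; rde-4 gonad small RNA, 0 to 6 in WT neuron mRNA, 0 to 1 in pigSi3 F3 gonad mRNA, 0 to 4 between rde-4 and 1 to 4 between pigSi3 neurons and gonads in small RNA.

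Sign changes were as follows, as log2 differences. With all 11 controls, ser-5 was -0.43 in pigSi3, -0.82 in pigEx9 F3 and 0.097 in pigEx10 P0, and npr-20 was 0.030 in pigEx9 F1. Without a filter npr-20 was -0.0015 in pigEx10 F3. In whole pigSi3 F3, npr-20 was 0.15 with a replicate block and 0.14 against rde-4 replicates 1 to 3, and ser-5 was 0.59 and 0.57. With library totals ser-5 was 0.096 in pigSi3 F3 gonad mRNA and -0.36 between pigSi3 neurons and gonads, where the block gave -0.013. With single libraries left out, npr-20 ranged from -0.42 to 0.19 in pigEx10 F3, from -0.31 to 0.031 in pigSi3 F3 and from -0.22 to 1.03 for the temperature difference. ser-5 ranged from -0.78 to 0.19 for that difference, from -0.59 to 0.39 in WT and -0.77 to 0.69 in pigSi3 neuron small RNA, from -0.15 to 0.034 in pigSi3 F3, -0.82 to 0.11 in sid-1; rde-4; pigSi3 and -0.35 to 0.16 in sid-1; rde-4 gonad mRNA, and from -0.84 to 0.47 between pigSi3 neurons and gonads.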

Other observations

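Among the 15 receptor genes npr-21 to npr-35, which stood under sequence names in the small RNA files, 6 had enough counts to test in N2 against rde-4 at 20 °C and 1, npr-34, was called lower in N2, where 31.4% of all genes tested were called. At 25 °C 4 were tested and 2 were called, npr-32 and npr-34, 1 higher and 1 lower, where 16.5% of all genes were called. Between rde-4 neurons and rde-4 gonads 6 were tested and npr-35 was called higher in neurons, where 29.3% of all genes were called. No other comparison called any of the 15 by edgeR.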
